A study of Danio rerio with 8 samples.

Results

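The genes described here serve bile acid synthesis, transport and sensing in zebrafish larvae with paralysed cilia. They were chosen by symbol, and all 7 named genes (hsd3b7, cyp7a1, fabp6, slc10a2, abcb11b, nr1h4 and nr0b2a) were found among the 20409 genes of the deposited table and passed the filter on low values. The choice was made with the comparison of mutants and siblings already known, hsd3b7, cyp7a1 and fabp6 being singled out from it. Their differences between genotypes are therefore a description, and the adjusted p of each is one of the values that led to its choice.

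RNA was sequenced from whole, untreated larvae at 4 days post fertilization. Mutant larvae were homozygous (-/-) for smh, a mutation of ccdc103, whose product helps to dock the dynein motors of motile cilia, and they were picked by a tail that curls down. The sibling controls mixed wild-type with heterozygous (+/-) larvae, so heterozygotes can dilute a difference between the groups. Each of 4 clutches gave 1 mutant library and 1 sibling library of 30 pooled larvae, which makes 4 libraries a group. Because the RNA is from whole larvae, fewer cells of a type and less RNA per cell cannot be told apart. ccdc103 itself (gene ID 437026) was at 0.68 ± 0.25 log2 CPM in siblings and 0.55 ± 0.31 in mutants (SD, n = 4), which is too alike to check the genotype labels.

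Bile acids and, in cyprinid fish, sulfated bile alcohols are made from cholesterol in hepatocytes. They are pumped into bile, help to take up fat in the gut, and are recovered by the distal intestine and returned to the liver. When bile acids accumulate, nuclear receptors that bind them lower the transcription of the synthesis enzymes, a feedback worked out mainly in mammals. Cyp7a1 hydroxylates cholesterol in the rate-limiting step of the classical route, and Hsd3b7 acts next on the sterol ring, in both the classical and the alternative route. Slc10a2 is the sodium-coupled carrier that takes bile acids up from the intestinal lumen, and Fabp6 binds them inside the absorbing cells. Abcb11b belongs to the bile salt export pumps of the hepatocyte. Nr1h4 is the bile acid receptor FXR, and Nr0b2a is the zebrafish counterpart of SHP, the corepressor that FXR induces in mammals.

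Levels are given as log2 CPM, that is, log2 of counts per library total after the authors' normalization. Genotypes were compared with limma over 20154 tested genes, once with no term for clutch and once with clutch as a block, which compares clutch mates. A gene passed at a Benjamini-Hochberg adjusted p under 0.05. CPM is not corrected for transcript length, so levels of different genes are not ranked against each other.

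On average, RNA of the synthesis genes hsd3b7 and cyp7a1 and of the intestinal genes fabp6 and slc10a2 was lower in mutants. RNA of abcb11b, nr1h4 and nr0b2a was close to that of the siblings. Within clutches, 4 of the 7 genes passed and were lower, and each of these 4 was lower in 4 of 4 clutches. With clutch as a block but without trended and robust moderation, hsd3b7 still passed (limma adjusted p = 0.0421), while cyp7a1, fabp6 and slc10a2 did not (0.1, 0.166 and 0.142). Over all tested genes, 1.39% passed in that direction within clutches and 10.9% were lower in 4 of 4 clutches. Without the clutch term only hsd3b7 of the 7 passed, against 0.0198% of all tested genes that passed as lower and 0.0546% that passed as higher (0.0744% in either direction). Nothing is read from these shares, because the genes were chosen on this contrast.

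**Figure D1:**
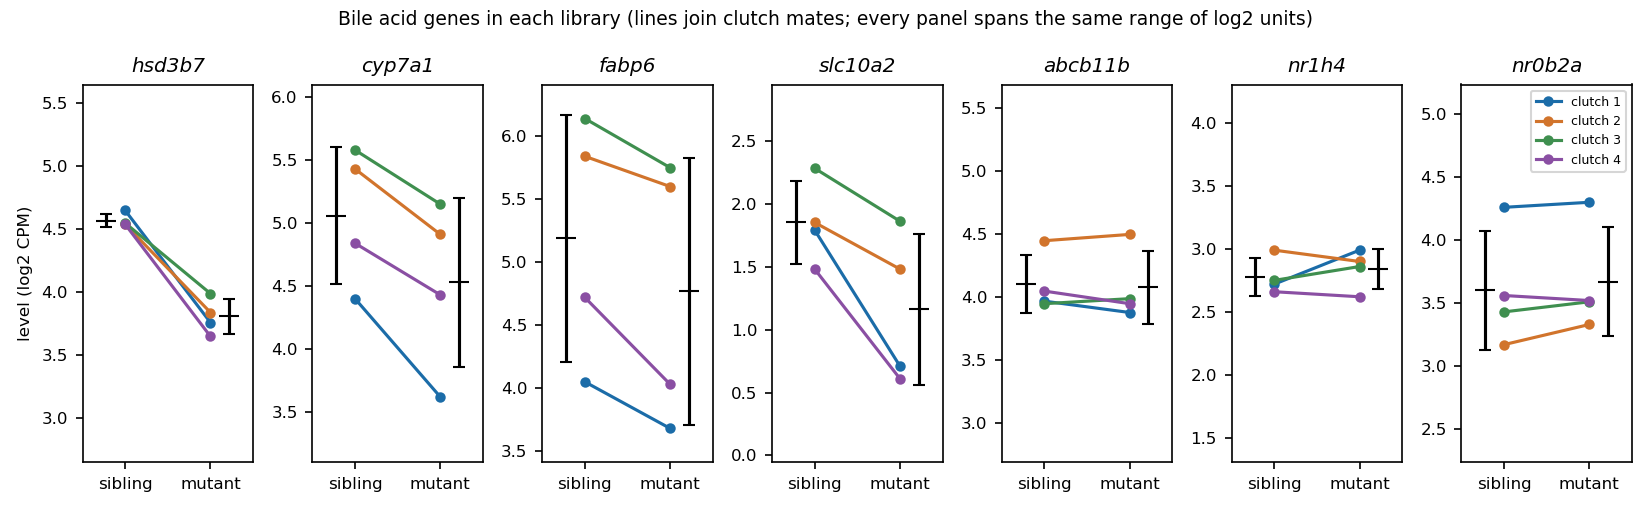
Level (log2 CPM) of the 7 bile acid genes in sibling and mutant libraries, with lines joining the 2 libraries of a clutch and black bars giving the mean and SD of 4 libraries. hsd3b7 was at 4.54 to 4.65 in siblings and 3.65 to 3.99 in mutants. The fabp6 lines all fall, with differences of -0.69 to -0.24 log2 units, from starting levels that span 4.05 to 6.14.

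Among the synthesis enzymes, hsd3b7 (gene ID 327462) was at 4.65, 4.54, 4.55 and 4.54 log2 CPM in the siblings of clutches 1 to 4, and at 3.76, 3.84, 3.99 and 3.65 log2 CPM in the mutants. The sibling libraries of different clutches lay within 0.11 log2 units of each other, and every mutant library was below every sibling library. Over all tested genes, 1.05% had groups that did not overlap in this direction. hsd3b7 was 1.69-fold lower in mutants on average, and between 1.48-fold and 1.85-fold lower in single clutches. The difference was -0.76 log2 units, with a 95% confidence interval of -0.99 to -0.53 without the clutch term (limma adjusted p = 0.0202) and -0.93 to -0.59 within clutches (limma adjusted p = 3.87e-05). Without the clutch term the threshold was missed when the sibling library of clutch 2, 3 or 4 or the mutant library of clutch 1, 2 or 4 was left out, while the difference stayed between -0.77 and -0.71 log2 units. In the authors' deposited table, hsd3b7 has a log2 fold change of -0.76 and an adjusted p of 0.00386.

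cyp7a1 (gene ID 394148) followed another pattern. In siblings of clutches 1 to 4 it was at 4.40, 5.43, 5.58 and 4.84 log2 CPM, and in mutants at 3.62, 4.91, 5.15 and 4.43. The groups overlapped, since clutches 1 and 4 were low and clutches 2 and 3 were high in both genotypes. Clutches differed up to 2.27-fold among siblings, more than the 1.45-fold mean difference between genotypes. Each mutant library was below its own clutch mate, by 0.78, 0.52, 0.43 and 0.41 log2 units. The mean difference of -0.54 log2 units had a 95% confidence interval of -1.34 to 0.26 without the clutch term (limma adjusted p = 1.0) and of -0.69 to -0.38 within clutches (limma adjusted p = 0.000532). cyp7a1b, a second gene with this name that was looked up after the values were seen, was at 1.47 ± 0.10 log2 CPM in siblings and 1.43 ± 0.25 in mutants (SD, n = 4).

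For intestinal recovery, fabp6 (gene ID 415166) was at 4.05, 5.84, 6.14 and 4.72 log2 CPM in siblings and at 3.68, 5.60, 5.75 and 4.03 in mutants. Clutches 2 and 3 were again high in both genotypes, and the range among siblings was 4.28-fold, the widest among the 7 genes. Mutants were 1.34-fold lower on average, and between 1.18-fold and 1.61-fold lower in single clutches. The difference of -0.42 log2 units had a 95% confidence interval of -1.79 to 0.95 without the clutch term (limma adjusted p = 1.0) and -0.58 to -0.26 within clutches (limma adjusted p = 0.00508). The smaller difference of -0.33 log2 units left after omission of clutch 4 did not pass (limma adjusted p = 0.0602 within clutches).

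slc10a2 (gene ID 393329), the uptake carrier, was scarce. Siblings had 1.79, 1.85, 2.28 and 1.48 log2 CPM and mutants had 0.71, 1.48, 1.86 and 0.61. The groups overlapped because the mutants of clutches 2 and 3 were at or above the lowest sibling, that of clutch 4. Within clutches the fall was unequal, at 1.08 and 0.87 log2 units in clutches 1 and 4 and 0.37 and 0.42 in clutches 2 and 3. The mean difference of -0.69 log2 units (95% confidence interval -1.05 to -0.33 within clutches) just passed within clutches (limma adjusted p = 0.0405, and 1.0 without the clutch term). It did not pass when any single clutch was left out, with differences of -0.79 to -0.56 log2 units and limma adjusted p of 0.0623 to 0.188. cyp7a1, fabp6 and slc10a2 are each listed with an adjusted p of 1.0 in the authors' deposited table.

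The bile salt export pump gene abcb11b (gene ID 571189) was at 3.97, 4.45, 3.95 and 4.05 log2 CPM in siblings and at 3.88, 4.5, 3.99 and 3.95 in mutants. Within clutches its difference of -0.03 log2 units had a 95% confidence interval of -0.19 to 0.14 (limma adjusted p = 0.918), which leaves room for a fall of up to 0.19 log2 units.

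Both sensing genes had intervals around 0. The receptor gene nr1h4 (gene ID 436847) was at 2.72, 2.99, 2.75 and 2.66 log2 CPM in siblings and at 2.99, 2.90, 2.86 and 2.62 in mutants, so it was higher in the mutants of 2 clutches and lower in those of the other 2. Its within-clutch interval ran from -0.17 to 0.28 log2 units (limma adjusted p = 0.871). nr0b2a (gene ID 403010) was at 4.26, 3.17, 3.43 and 3.56 log2 CPM in siblings and at 4.30, 3.33, 3.51 and 3.52 in mutants, with clutch 1 high in both genotypes. Its within-clutch interval ran from -0.12 to 0.24 log2 units (limma adjusted p = 0.806). For nr0b2a, clutches differed up to 2.13-fold among siblings, and clutch 1 was the highest, whereas it was the lowest for cyp7a1 and fabp6.

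The other genes of the pathway were taken from 4 lists by role, with 73 symbols in all, of which 52 were in the table and 51 were tested. The 44 tested members other than the 7 genes had a median difference of 0.00 log2 units, as did all tested genes. Without the clutch term 0 of the 44 passed (limma, 1 at an unadjusted p under 0.05, or 2.27% against 3.41% of all tested genes). Within clutches 1 of the 44 passed (2.27%, against 2.34% of all tested genes in either direction), and 12 had an unadjusted p under 0.05 (27.3%, against 13.5% of all tested genes). Of the 44, 11 were lower (25%) and 8 higher (18.2%) in 4 of 4 clutches, against 10.9% and 11% of all tested genes.

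The member that passed was abcb4 (gene ID 100136865). In mammals ABCB4 moves phospholipid into bile, while zebrafish Abcb4 is known as a multidrug efflux pump of the embryo. Siblings had 5.20, 6.28, 6.40 and 5.64 log2 CPM and mutants had 4.69, 6.01, 6.01 and 5.12, so clutches 2 and 3 were high in both genotypes, as for cyp7a1. It was 1.34-fold lower, with a difference of -0.42 log2 units (95% confidence interval -0.55 to -0.28 within clutches, limma adjusted p = 0.00132 within clutches and 1.0 without the clutch term). It missed the threshold within clutches without trended and robust moderation (limma adjusted p = 0.119). The 2 groups overlapped. A two-sided exact permutation test of the difference of means, without pairing by clutch, gave p = 0.343. Its 70 arrangements allow no p below 0.0286. The test ignores the clutch mates, and abcb4 was tested because it had passed in these same data.

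The synthesis list had 32 symbols, of which 17 were matched and 16 were tested. Of the 16 tested synthesis genes, 2 fell within clutches (12.5%, against 1.39% of all tested genes) and 0 rose, with a list median of -0.03 log2 units. The 2 were hsd3b7 and cyp7a1, both chosen on this contrast, so nothing is read from their count. Of the 16, 6 were lower in 4 of 4 clutches (37.5%, against 10.9% of all tested genes), hsd3b7 and cyp7a1 among them. Only 1 was higher in 4 of 4 clutches (6.25%, against 11% of all tested genes). cyp8b1, the sterol hydroxylase that sets the kind of bile acid made in mammals, had a difference of -0.25 log2 units (limma adjusted p = 0.0695 within clutches). cyp27a7, of the family that oxidizes the sterol side chain, differed by -0.20 log2 units (limma adjusted p = 0.302 within clutches). cyp7b1, the oxysterol hydroxylase of the alternative route, was at 3.66, 3.53, 3.58 and 3.53 log2 CPM in siblings and at 3.72, 3.75, 3.73 and 3.71 in mutants. Every mutant library was above every sibling library for cyp7b1, as for 1.87% of all tested genes, but the difference was only 0.15 log2 units (limma adjusted p = 0.45 within clutches). The genes of side-chain shortening in peroxisomes amacr, hsd17b4 and scp2a differed by 0.06, -0.13 and -0.19 log2 units, and none of these 3 passed in either fit.

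Among 13 hepatocyte transport genes abcb4 alone passed, as lower within clutches (7.69%, against 1.39% of all tested genes). The list median was -0.07 log2 units. The canalicular conjugate pump gene abcc2 differed by -0.25 log2 units (limma adjusted p = 0.0644 within clutches). The flippase gene atp8b1 and the organic anion uptake gene slco2b1 each differed by 0.20 log2 units and were higher in 4 of 4 clutches (limma adjusted p = 0.181 and 0.159 within clutches). These were the 2 of the 13 that were higher in 4 of 4 clutches (15.4%, against 11% of all tested genes). Lower in 4 of 4 clutches were 5 of the 13 (38.5%, against 10.9% of all tested genes). In the intestine list, slc51a, which encodes a subunit of the basolateral exporter, was at 4.83, 5.12, 4.43 and 4.99 log2 CPM in siblings and at 4.82, 5.15, 4.73 and 4.94 in mutants. Its difference of 0.07 log2 units had a within-clutch interval of -0.09 to 0.22. The other 2 of the 3 tested members, slc10a2 and fabp6, fell within clutches (66.7%, against 1.39% of all tested genes). Both were chosen on this contrast, so nothing is read from that count.

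Of 19 sensing and feedback genes 0 passed in either fit (limma, with 1 and 3 at an unadjusted p under 0.05 without and with the clutch term), and the list median was 0.06 log2 units. These are 5.26% and 15.8% of the list, against 3.41% and 13.5% of all tested genes. Its most abundant members were rxrba, a partner receptor, and fgfr4, the receptor of the intestinal signal that restrains bile acid synthesis in mammals, and they differed by 0.08 and 0.09 log2 units. mafga, related to a repressor of bile acid synthesis genes in mice, was at 1.06, 1.50, 1.09 and 1.35 log2 CPM in siblings and at 0.59, 0.78, 0.59 and 0.91 in mutants. The groups did not overlap, as for 1.05% of all tested genes in this direction. The difference of -0.53 log2 units did not pass (limma adjusted p = 0.191 within clutches), and mafga was named after its values were seen. For nr1i2 the groups did not overlap in the other direction, at 4.13 to 4.32 log2 CPM in siblings and 4.33 to 4.44 in mutants. That held for 1.87% of all tested genes. Of the 19, 5 were higher (26.3%, against 11% of all tested genes) and 2 lower (10.5%, against 10.9%) in 4 of 4 clutches.

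**Figure D2:**
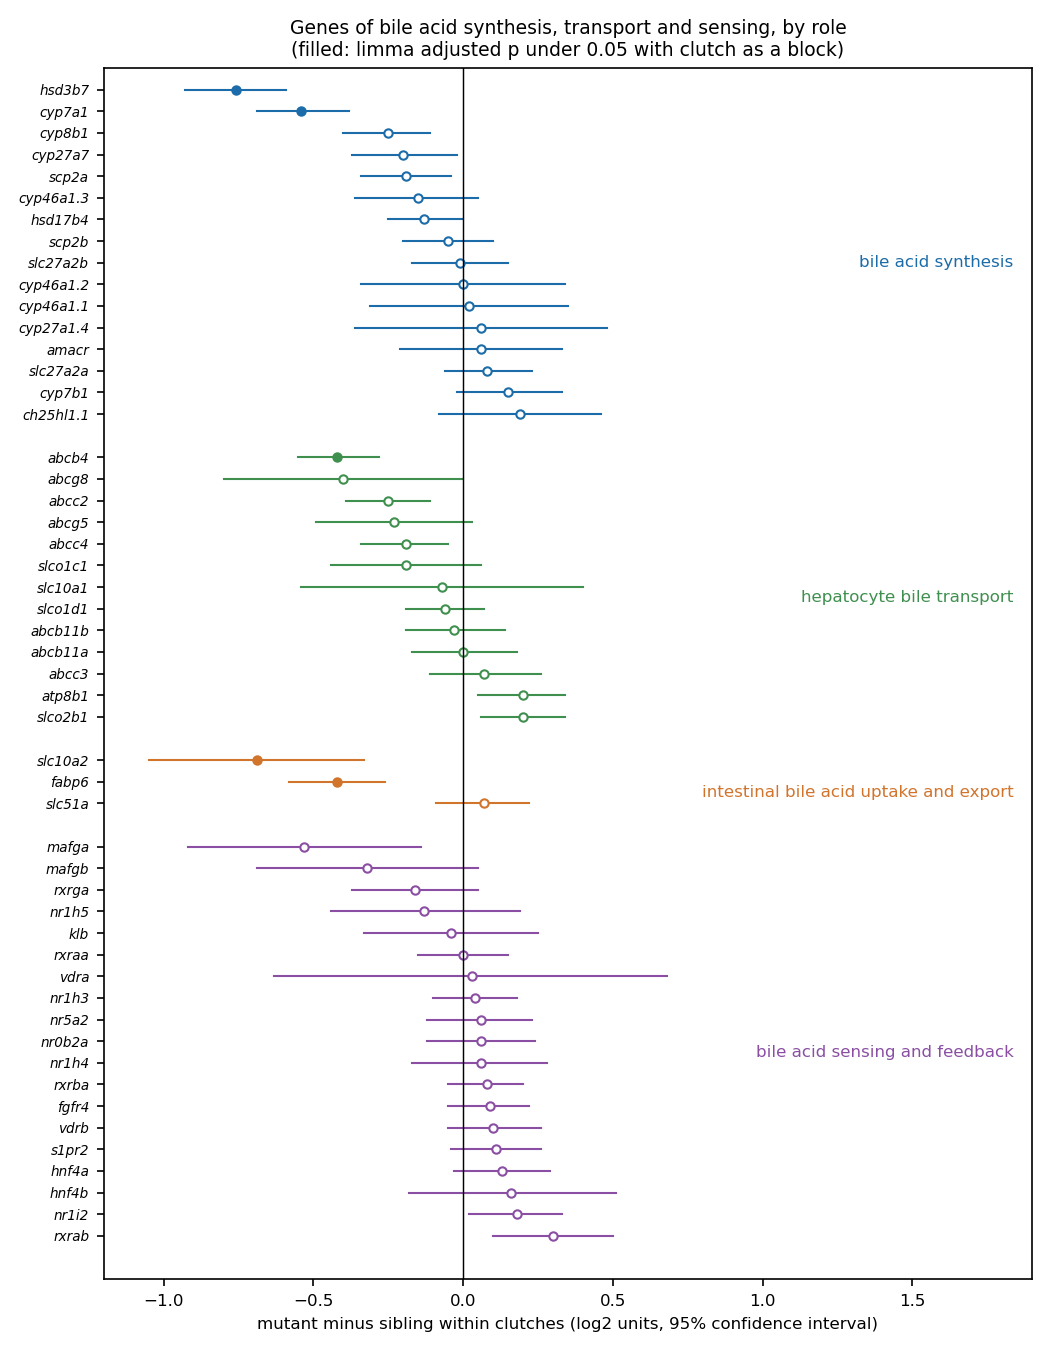
Within-clutch difference of mutants from siblings (log2 units) for the 51 tested genes of the 4 bile acid lists, grouped by role, with 95% confidence intervals and filled points where the limma adjusted p was under 0.05. The 5 filled points, hsd3b7, cyp7a1, abcb4, slc10a2 and fabp6, lie between -0.76 and -0.42, and all sensing genes are open.

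hsd3b7 lies on the chromosome of ccdc103. In the gene order of RefSeq's GRCz12tu assembly, matched by gene ID, hsd3b7 is the 17th tested gene from ccdc103, with 16 tested genes between them, and it is the 1 gene of the 7 on that chromosome. Larvae picked as homozygous for smh also share the chromosome segment around ccdc103, so for hsd3b7 the mutation and linked sequence differences cannot be told apart. Positions are left out because the build of the files is GRCz11.

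Of the 10 tested genes nearest to hsd3b7, 5 on each side, 0 fell and 1 rose within clutches. The 1 that rose is 10% of them, against 0.948% of all tested genes that rose and 1.39% that fell. Without the clutch term 0 of the 10 passed, against 0.0744% of all tested genes. setd1a and fus, on one side, differed by 0.05 and 0.10 log2 units, and mylpfa, the muscle myosin light chain gene on the other side, by 0.10. The gene that rose was si:dkey-16l2.17, which was higher by 0.74 log2 units (limma adjusted p = 0.0247 within clutches and 0.839 without the clutch term). zgc:153733 differed by -0.64 log2 units and did not pass (limma adjusted p = 0.13 within clutches).

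Between hsd3b7 and ccdc103, 2 of 16 genes fell within clutches (12.5%, against 1.39% of all tested genes). Both were named after their values were seen. The 16 genes had a median absolute difference of 0.194 log2 units, against 0.087 for all tested genes. Groups did not overlap, in either direction, for 4 of the 16, against 588 of 20154 tested genes. zgc:113090, the 6th tested gene from hsd3b7, was at 1.17, 0.65, 0.31 and 0.73 log2 CPM in siblings and at -5.02, -4.96, -3.14 and -4.96 in mutants, of which -5.02 is the lowest value in the table (limma adjusted p = 0.00161 without the clutch term and 6.02e-05 within clutches). The small heat shock protein gene hspb9 was at 3.22, 3.90, 3.42 and 3.68 log2 CPM in siblings and at 2.55, 2.78, 2.56 and 2.62 in mutants (limma adjusted p = 0.0844 without the clutch term and 6.39e-05 within clutches). Among the 199 tested genes within 100 of ccdc103, with ccdc103 and hsd3b7 left out, 9.05% passed within clutches, against 4.82% on the rest of the chromosome and 2.34% of all tested genes. Within clutches these genes passed in both directions, 11 higher and 7 lower. Without the clutch term 2.01% of the 199 passed, 1 higher and 3 lower. That compares with 0.124% on the rest of the chromosome and 0.0744% of all tested genes. With hsd3b7 counted, 4 genes of this window passed as lower without the clutch term, and 4 did among all tested genes. The part of linkage in the fall of hsd3b7 was not tested.

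**Figure D3:**
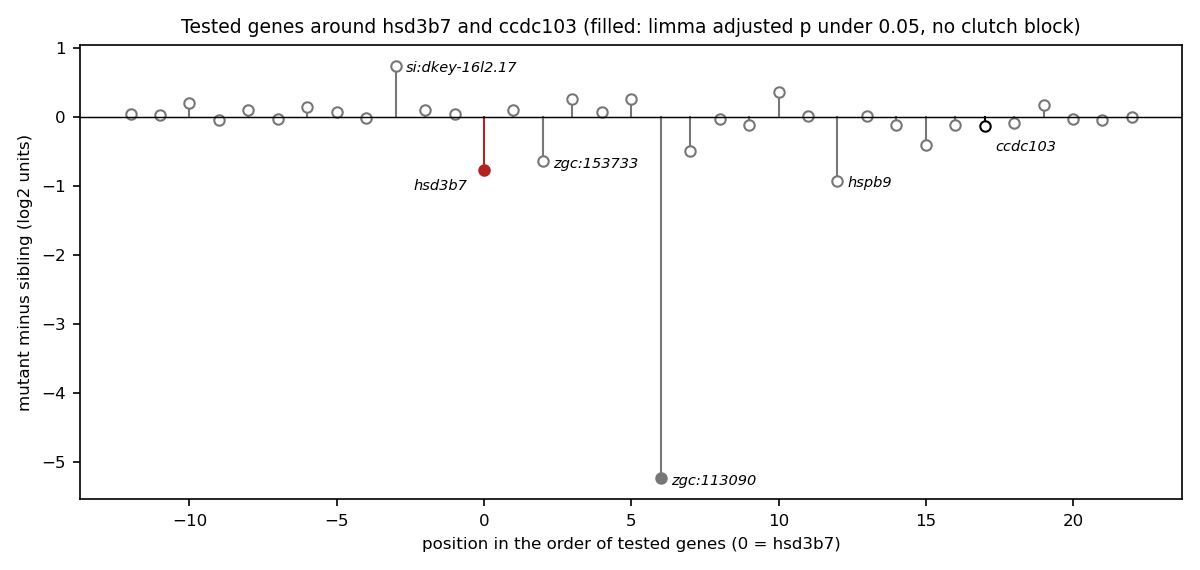
Difference of mutants from siblings (log2 units) for hsd3b7 (red), ccdc103 (black) and the tested genes around them, by their place in the gene order counted from hsd3b7, filled where the limma adjusted p was under 0.05 without the clutch term. Many neighbours lie near 0, while zgc:113090 stands at -5.24, hspb9 at -0.92, si:dkey-16l2.17 at 0.74, zgc:153733 at -0.64, kat7a at -0.49 and casp6 at 0.36.

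Markers of the tissues that use these genes moved differently from each other. The 24 hepatocyte markers had a median difference of 0.04 log2 units. Their summed level was 9610 to 11300 CPM in siblings and 10400 to 11700 CPM in mutants. Of that sum apobb.1 gave 3080 CPM and apoa2 2030 CPM in siblings on average, and 3390 and 2060 CPM in mutants. Whether these markers follow the amount of liver was not tested. Within clutches 2 of them rose and 2 fell (8.33% each, against 0.948% and 1.39% of all tested genes). A further measure, an unadjusted limma p under 0.05 within clutches, was met by 11 of the 24 (45.8%, against 13.5% of all tested genes). The most abundant of these markers, apobb.1, apoa2, rbp4 and tfa, differed by 0.14, 0.04, -0.05 and 0.21 log2 units, and none of the 4 passed in either fit. Single hepatocyte markers ranged from -1.09 to 0.34 log2 units. The marker fabp10a differed by -0.28, 0.28, 0.10 and -0.44 log2 units in clutches 1 to 4. Against the median hepatocyte marker of the same clutch, hsd3b7 was lower by 0.87, 0.80, 0.70 and 0.88 log2 units and cyp7a1 by 0.76, 0.62, 0.57 and 0.41. The mean differences of hsd3b7 and cyp7a1 from that median were -0.81 ± 0.08 and -0.59 ± 0.15 log2 units (SD, n = 4). From the median enterocyte and exocrine pancreas markers, cyp7a1 differed by -0.16 ± 0.22 and 0.00 ± 0.24 log2 units (SD, n = 4), lying below each in 3 of 4 clutches. hsd3b7 differed from the median exocrine pancreas marker by -0.22 ± 0.12 log2 units (SD, n = 4), lying below it in 4 of 4 clutches. abcb11b lay 0.08 ± 0.02 log2 units below the median hepatocyte marker (SD, n = 4). The 8 biliary cell markers had a median of 0.08 log2 units and a summed level of 1620 to 1790 CPM in siblings and 1630 to 1830 CPM in mutants. Of these 8, 1 rose within clutches (12.5%, against 0.948% of all tested genes).

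The 23 enterocyte markers had a median of -0.37 log2 units, with 12 falling (52.2%, against 1.39% of all tested genes) and 0 rising within clutches. Without the clutch term 0 of the 23 passed (limma, 2 at an unadjusted p under 0.05, or 8.7% against 3.41% of all tested genes). Within clutches 19 of the 23 had an unadjusted limma p under 0.05 (82.6%, against 13.5% of all tested genes). The medians of the 23 markers in clutches 1 to 4 were -0.46, -0.27, -0.21 and -0.58. From these medians fabp6 differed by 0.10, 0.03, -0.19 and -0.10 log2 units. On average fabp6 differed from the median enterocyte marker by -0.04 ± 0.13 log2 units (SD, n = 4), while slc10a2 lay below that median in 4 of 4 clutches. Against the summed level of the enterocyte markers, fabp6 was lower in 4 of 4 clutches, with a mean difference of -0.33 ± 0.17 log2 units (SD, n = 4). It was also below the median marker of lysosome-rich enterocytes in 4 of 4 clutches, with a mean difference of -0.27 ± 0.13 log2 units (SD, n = 4). The summed level of the enterocyte markers was 7020 to 8170 CPM in siblings and 6270 to 7510 CPM in mutants, but 39.4% to 72.9% of it came from apoa1a, which the liver and yolk cell also express. abcb4 differed from the median enterocyte marker by -0.05, 0.01, -0.18 and 0.07 log2 units. The 14 markers of lysosome-rich enterocytes, the protein-absorbing cells beside the segment that takes up bile acids, had a median of -0.17 log2 units. Of these 14, 4 fell within clutches (28.6%, against 1.39% of all tested genes). The gene tdo2b is in this list and in the hepatocyte list, and it counts among the falls of both. Without the clutch term 0 of the 14 passed (limma, 0 at an unadjusted p under 0.05, against 3.41% of all tested genes). Within clutches 7 of the 14 had an unadjusted limma p under 0.05 (50%, against 13.5% of all tested genes). The summed level of the 14 markers was 401 to 614 CPM in siblings and 368 to 646 CPM in mutants. Exocrine pancreas markers had a median of -0.50 log2 units over 16 members, matched from 23 listed symbols. Their summed level was 3640 to 7020 CPM in siblings and 2360 to 5580 CPM in mutants. Of these 16, 14 fell within clutches (87.5%, against 1.39% of all tested genes). Without the clutch term 0 of the 16 passed (limma, 1 at an unadjusted p under 0.05, or 6.25% against 3.41% of all tested genes). Within clutches 16 of the 16 had an unadjusted limma p under 0.05 (100%, against 13.5% of all tested genes). No member of these 5 lists was below 0 log2 CPM in all 8 libraries. What part the intestinal and pancreatic differences have in the hsd3b7, fabp6, slc10a2, abcb4 and cyp7a1 values was not tested.

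**Figure D4:**
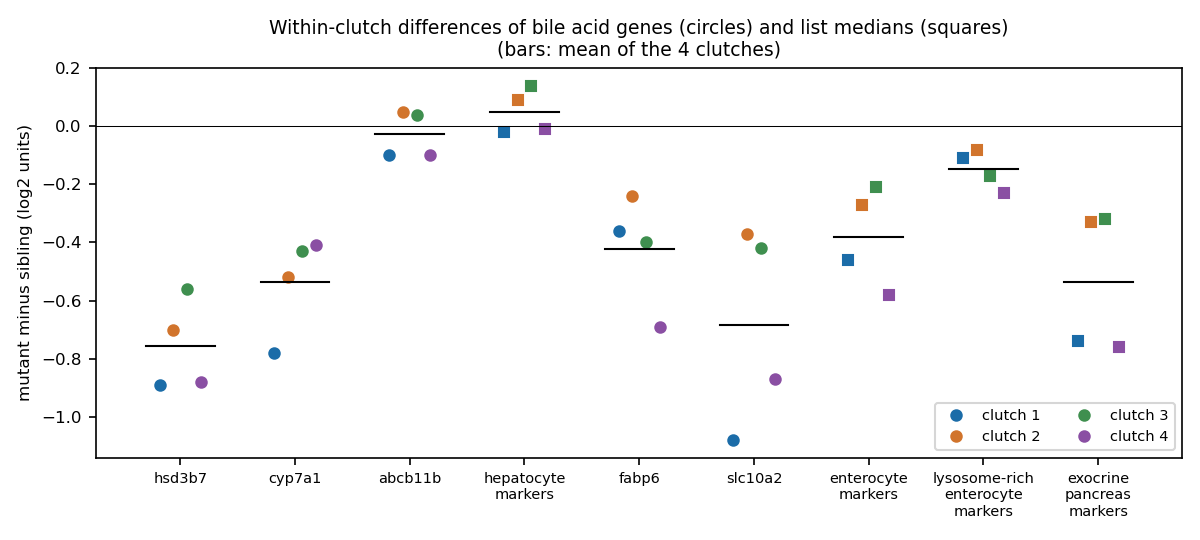
Within-clutch differences (mutant minus sibling, log2 units) of 5 bile acid genes (circles) and medians of 4 cell type marker lists (squares), coloured by clutch, with bars at the mean of 4 clutches. hsd3b7 and cyp7a1 lie below 0 while the hepatocyte medians lie between -0.02 and 0.14, and fabp6 (-0.69 to -0.24) overlaps the enterocyte medians (-0.58 to -0.21).

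The genes with the most similar patterns over the 8 libraries also differed between the 3 leading genes. Likeness was the root mean square difference of log2 values after each gene was centred on its mean. It was taken over 13235 other tested genes whose mean was at least 5 CPM. Genes without a symbol, or with a clone or predicted name, were left out, so the genes given are the nearest among the rest only. The nearest to hsd3b7 were hspb11 (0.14 log2 units), arg2 (0.158), myoz2a (0.161), cox4i2 (0.174) and tat (0.177), none of them on the chromosome of ccdc103.

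The nearest to cyp7a1 were the pancreatic elastase gene ela2 (0.102 log2 units), abcb4 (0.132), tgm1l3 (0.135), the intestinal amino acid transporter gene slc6a19b (0.137) and the aminopeptidase gene anpepb (0.148). ela2 was at 8.40, 9.37, 9.48 and 8.95 log2 CPM in siblings and at 7.75, 9.10, 9.14 and 8.36 in mutants, with the same order of clutches as cyp7a1. The nearest to fabp6 were enpp7.1 (0.161 log2 units), which encodes an intestinal sphingomyelinase, grn1 (0.192), the cytochrome P450 gene cyp3a65 (0.2), the meprin gene mep1a.2 (0.237) and aoc1 (0.241). Among the 7 genes themselves the closest pairs were abcb11b with nr1h4 (0.204 log2 units), cyp7a1 with slc10a2 (0.35) and hsd3b7 with slc10a2 (0.356). Genes of small variation, such as abcb11b and nr1h4, score as alike by this measure whatever their patterns. A gene with no variation would lie 0.391 log2 units from hsd3b7, 0.594 from cyp7a1 and 0.908 from fabp6. The pair of hsd3b7 with slc10a2 is little closer than that. The order of the 4 clutches was the same in siblings and mutants for 4 of the 7 genes, cyp7a1, fabp6, slc10a2 and nr0b2a, and for 17.3% of all tested genes. These likenesses are descriptions over 8 libraries that share clutches.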

How the data were processed

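RNA of 8 libraries was sequenced on a BGI DNBSEQ instrument and reads were filtered with SOAPnuke 1.5.2, per the labels' protocols. GRCz11, HISAT2 2.0.4, Bowtie2, RSEM and limma are named in the submitters' processing notes, without role or order. The authors deposited a table of log2 values per library, taken here as log2 CPM because the delogged values add up to 997999 to 998006 in each library; its equal quantiles point to quantile normalization by the authors. The authors also deposited log2 fold changes with p-values and adjusted p-values, and a score (a moderated statistic and log odds) that was not used. Their mean level differs by over 0.1 log2 units from the mean of these 8 libraries for 9075 genes, so what entered their fit is not given in the sources used here. No counts were used, so depth and the precision it gives are unknown.

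Genes were tested if 4 of the 8 libraries reached 0 log2 CPM. limma 3.58.1 in R 4.3.3 was run with a mean-variance trend and robust moderation, and with Benjamini-Hochberg adjustment over all tested genes. The fit without clutch was the main one. Libraries are paired by clutch, as numbered in the labels, and deviations from group means correlated by 0.72, 0.502, 0.498 and 0.299 between mates. The labels do not say whether larvae of different clutches share parents. The procedure was tested on simulated data. Named genes were the 7 genes, list members past the threshold (the 2 most abundant of a list with none), the 5 neighbours on each side of hsd3b7, ccdc103, the 5 most similar genes and up to 4 abundant markers a list; cyp7a1b, mafga, zgc:113090, hspb9 and the other list members given with values were added after values were seen. The genes, lists and tests were chosen with earlier results of these data known. Symbols were matched exactly to the deposited table. Alternatives were a clutch block, other filters, log2(CPM + 1), median-ratio size factors, repeated quantile normalization, no trend or robust moderation, exclusion of the ccdc103 chromosome, and exclusion of each library or clutch. Gene order came from RefSeq's GRCz12tu.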

Additional observations from a re-analysis of the deposited data

Results flagged for a closer look

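Of 34 groups of 4 values examined, 1 had a value far from the other 3, and chance gives about 1 in 20. In the sibling libraries, hsd3b7 of clutch 1 (4.65 log2 CPM) stood above the other 3 (4.54 to 4.55), with a gap of 0.878 of the group's range, past the limit of Dixon's test for 4 values. The whole range was 0.11 log2 units, and without that library the difference between genotypes was -0.73 log2 units.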

How the results depend on the processing

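Without the clutch term, 15 genes passed. Other counts were 472 with the replicate block, 50 with the block but no trend or robust moderation, 7 when a mean of 5 CPM was required, 8 without the chromosome of ccdc103, and 7 to 21 without single libraries. Of the bile acid lists 1 member passed, 5 with the block, 0 without that chromosome, and 0 to 1 without single libraries. The 1 member is hsd3b7, which lies on that chromosome and is itself left out there, so that 0 says nothing about the processing. The block leaves the size of each difference as it was and brought cyp7a1 (-0.54), fabp6 (-0.42) and slc10a2 (-0.69 log2 units) past the threshold. Without single libraries and without the block, hsd3b7 stayed between -0.82 and -0.71, cyp7a1 ranged from -0.76 to -0.24, fabp6 from -0.80 to -0.06, abcb11b from -0.17 to 0.09 and nr0b2a from -0.15 to 0.28 log2 units, so the signs of abcb11b and nr0b2a are not determined. Within clutches, 178 to 447 genes (235 without clutch 2) and 3 to 5 list members passed without single clutches, and 50 and 1 without trend or robust moderation, where cyp7a1 (-0.54), fabp6 (-0.42), slc10a2 (-0.69) and abcb4 missed the threshold and hsd3b7 kept it. Without single clutches fabp6 ranged from -0.48 to -0.33, slc10a2 from -0.79 to -0.56 (-0.78 without clutch 3 and -0.63 without clutch 4) and nr1h4 from -0.01 to 0.11 log2 units. The sign of nr1h4 is therefore not determined either.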
